A study of Mus musculus with 16 samples.

Results

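Gata1, Gata3, Tbx21, Eomes, Rora and Bcl6 code for transcription factors that steer blood cells and CD4 helper T cells toward their fates. Every probe set annotated to these 6 symbols was taken, whatever its values, which gave 12 of the 45141 probe sets on the array: 1 each for Gata1, Gata3 and Tbx21, 2 each for Eomes and Bcl6, and 5 for Rora. A probe set was tested where its log2 value was above 5 on at least 4 of the 16 arrays, which 18621 probe sets met. Of the 12, 9 met it, and the probe set of Tbx21 and 2 of the 5 of Rora did not.

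The RNA came from CD4 T cells of the spleens of untreated NOD/LtJ mice aged 6 weeks, a strain that develops autoimmune diabetes, and each of the 4 groups had 4 arrays. KI Tregs and KI Tconv came from mice with the knock-in allele Foxp3tm2Ayr, which joins GFP to Foxp3 (the label is Foxp3gfp in short), where Tregs are regulatory T cells and Tconv are conventional T cells. WT Tregs and WT Tconv came from mice called WT that carry the transgene Tg(Foxp3-EGFP/cre)1aJbs, which expresses a GFP-Cre protein under Foxp3 control. Both genotypes thus carry a Foxp3 reporter, and a difference between them sets a changed Foxp3 gene without the transgene against an unchanged Foxp3 gene with it. Every sample, Tregs too, is labelled with the gate CD3+CD4+GFP-, which leaves the sort of the Tregs unclear. Whether each array had its own mouse is not given, and the p-values therefore measure only the spread between these samples, which may be technical.

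Helper T cells take different fates under different master regulators. Tbx21 (T-bet) directs Th1 cells and works beside its relative Eomes in cytotoxic and memory cells, Gata3 directs Th2 cells, Rora works with the nuclear receptor RORγt in Th17 cells, and Bcl6 directs follicular helper (Tfh) cells and is opposed by Blimp-1, the product of Prdm1. Tregs can take up these factors alongside Foxp3, and Gata3, Rora and Bcl6 each have known roles in Treg subsets. Gata1 belongs to the same family as Gata3 but is known above all for red cells, megakaryocytes, mast cells and eosinophils. It lies on the X chromosome, as Foxp3 does.

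The sorted populations carried the markers of their labels. Foxp3 ranged over 9.39 to 10.05 on KI Treg arrays, 9.72 to 10.16 on WT Treg arrays, 3.57 to 3.78 on KI Tconv arrays and 4.24 to 4.96 on WT Tconv arrays, so no array went against its cell type. The IL-2 receptor gene Il2ra averaged 9.77 in KI Tregs, 9.30 in WT Tregs, 3.70 in KI Tconv and 3.80 in WT Tconv, and the T cell gene Cd3d averaged 12.2 in each group. Genes of other cells were present on some arrays, among them the haemoglobin gene Hba-a1, the neutrophil genes S100a8 and S100a9 and the B cell gene Ms4a1, with SDs of 1.17 to 3.28 within groups. The number in each sample's title, whose meaning the labels do not give, runs over 4 to 9 for WT arrays, 13 to 23 for KI arrays and 24 to 27 for the fourth array of each group. Between 17527 and 17936 probe sets stood above log2 5 on an array.

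The sequences upstream of Gata1 and Gata3 are shown because these are the 2 relatives in the set. Both were higher in Tregs, as were Rora, Eomes and Bcl6. Each is the 250 bases before the gene's start in RefSeq on the mouse build GRCm38.p6, which is the sequence of another strain than NOD, written 5′ to 3′ on the gene's own strand. Capitals mark matches, on either strand, to the GC box (letters GGGCGG) and to the box that Krüppel-like factors bind (letters CCACCC). The Gata1 window is chrX:7967911-7968160, minus strand, and the Gata3 window is chr2:9878601-9878850, minus strand.
Gata1: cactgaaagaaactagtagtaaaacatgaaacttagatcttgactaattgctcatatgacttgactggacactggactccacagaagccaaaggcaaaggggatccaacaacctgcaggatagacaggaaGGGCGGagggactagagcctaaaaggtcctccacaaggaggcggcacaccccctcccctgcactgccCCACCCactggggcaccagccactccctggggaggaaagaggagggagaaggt
Gata3: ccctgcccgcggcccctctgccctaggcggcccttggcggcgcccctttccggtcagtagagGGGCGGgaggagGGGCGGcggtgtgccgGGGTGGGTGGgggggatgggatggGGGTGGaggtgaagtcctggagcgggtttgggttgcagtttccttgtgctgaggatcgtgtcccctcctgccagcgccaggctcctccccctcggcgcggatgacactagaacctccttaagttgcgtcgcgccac
The Gata1 window held 54.0% G or C bases with 1 match to each. The Gata3 window held 70.0%, with 2 matches to GGGCGG and 3 to CCACCC, some of them overlapping, against a median of 52.4% over all windows of this length. Of 32851 such windows, 32.74% held a match to the first and 28.08% to the second. Of the other genes higher in Tregs, the windows of Rora and Eomes held 0 matches to either, and a window of Bcl6 held 1 to GGGCGG. The 6 genes' windows were also searched, on both strands, for motifs of factors active in T cells. The GATA letters AGATAA occur in 9.988% of all windows and the GATA letters TGATAA in 7.942%. The forkhead letters TGTTTAC occur in 3.166%, the RUNX letters TGTGGT in 14.05%, the T-box letters AGGTGTGA in 1.12% and the ROR letters AGGTCA in 14.02%. None of these 6 was found in a window of the 6 genes.

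Tregs had more RNA of Gata1, Gata3, Rora, Eomes and Bcl6 than Tconv of the same genotype. All 9 tested probe sets were called higher in Tregs in both KI and WT, at an adjusted p under 0.05 (limma, Benjamini-Hochberg adjustment over all 18621). Of the 18621, 36.6% were called in KI, 16.9% higher and 19.7% lower, and 28.9% in WT, 13.7% higher and 15.1% lower. The arrays of the groups did not overlap for 8 of the 9 in KI and for 9 of 9 in WT, against 31.1% and 32.8% of all probe sets. The median difference of all probe sets was -0.05 in KI and -0.03 in WT. In these bulk samples more cells with a transcript and more transcript per cell cannot be told apart. Filtering favours such differences: 1450381_PM_a_at of Bcl6 stood above log2 5 on 8 of 8 Treg arrays and only 2 of 8 Tconv arrays.

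**Figure D1:**
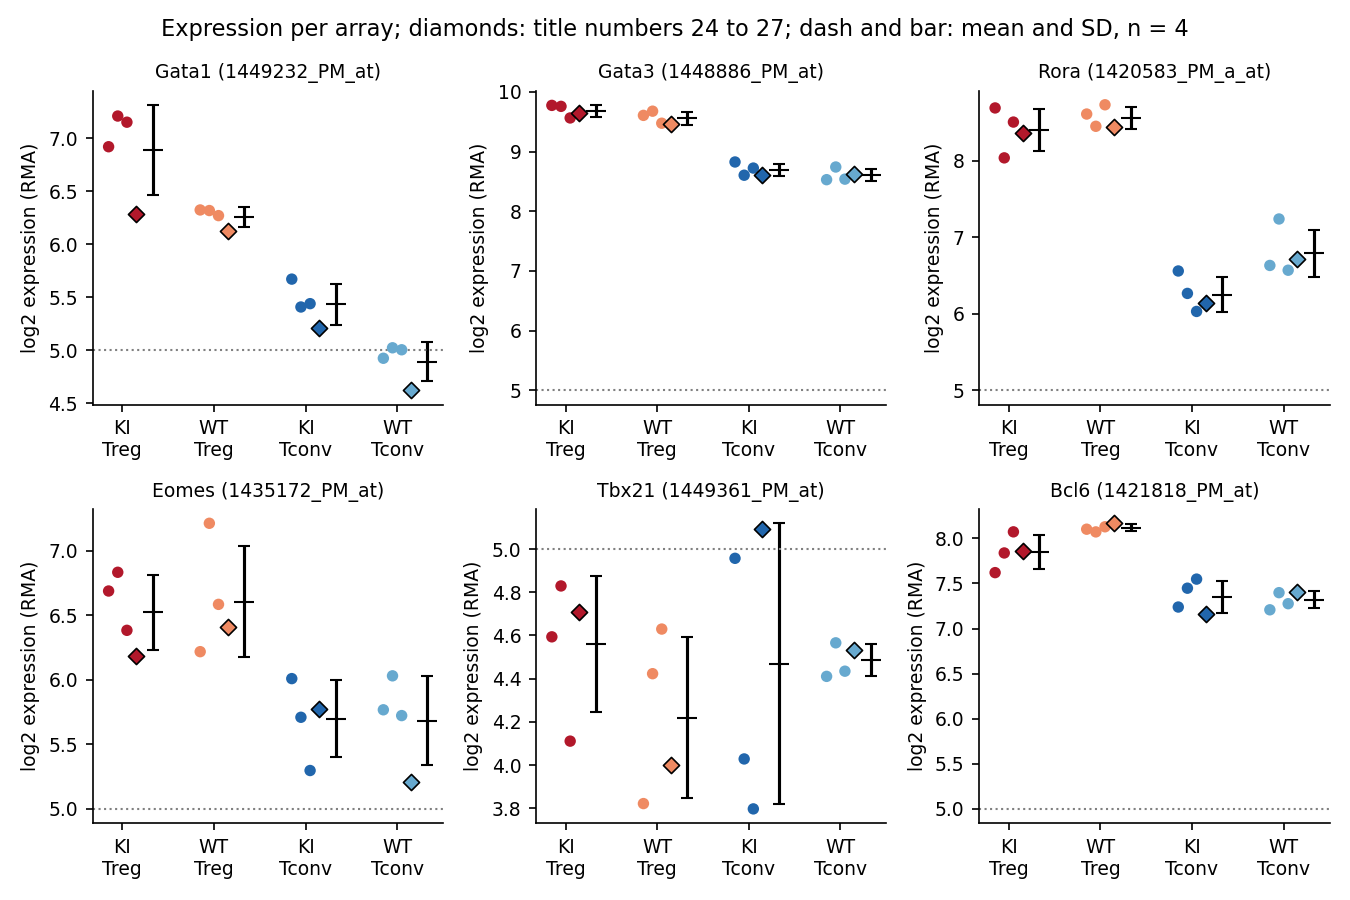
Log2 expression on each array for the probe set of each gene with the highest mean, by group; points are arrays, diamonds mark title numbers 24 to 27, the dash and bar are mean and SD of 4 arrays, and the dotted line is log2 5. Treg arrays lie above Tconv arrays for 5 of the 6 genes, and Tbx21 stays under or near 5 in every group.

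Gata1 (1449232_PM_at) had log2 values of 6.92, 7.21, 7.15 and 6.28 in KI Tregs, 6.32, 6.32, 6.27 and 6.12 in WT Tregs, 5.67, 5.41, 5.44 and 5.21 in KI Tconv, and 4.92, 5.02, 5.00 and 4.62 in WT Tconv. Every Treg array was above every Tconv array, and the KI Treg array with title number 26 lay below the other 3 KI Treg arrays, at the level of WT Tregs. The gene had a Treg minus Tconv difference of 1.46 in KI (2.75-fold, SE 0.170, adjusted p = 2.85e-06) and 1.37 in WT (2.58-fold, SE 0.170, adjusted p = 8.09e-06). The order of the means was KI Treg, WT Treg, KI Tconv, WT Tconv, and the arrays of neighbours in that order overlapped only between KI and WT Tregs. The WT Tconv level was near background, where a log2 difference understates the fold.

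Markers of the cells in which Gata1 is best known were read beside this. Of 8 measured mast cell, basophil and eosinophil markers and of 5 platelet and megakaryocyte markers none passed the filter, and their list means ranged over 2.86 to 3.16 and 3.23 to 3.59 in KI Tregs, 2.88 to 3.06 and 2.96 to 3.73 in WT Tregs, 2.85 to 2.87 and 3.10 to 3.61 in KI Tconv, and 2.86 to 2.996 and 3.12 to 3.39 in WT Tconv. Of 7 measured erythroid markers 2 passed, Hba-a1 and the transferrin receptor gene Tfrc, which dividing T cells use as well. Klf1, Alas2 and Epor, which mark red cell precursors, averaged 3.17 to 4.202 in the 4 groups. Hba-a1 averaged 10.4 in KI Tregs and 10.9 in WT Tregs, and 9.85 in KI Tconv and 10.6 in WT Tconv, and it was called in no comparison. The KI minus WT difference of Hba-a1 was -0.53 in Tregs and -0.77 in Tconv, each with an SE of 0.90. The red cell markers did not all go the same way. Slc4a1, under the filter, averaged 4.19 in KI Tregs and 4.09 in WT Tregs, and 3.67 in KI Tconv and 3.96 in WT Tconv. Ermap, also under it, averaged 4.11, 4.12, 3.96 and 4.25 in the same order. Hba-a1 and Gata1 both had higher means in Tregs than in Tconv, with SDs of 1.20 to 1.78 within groups for Hba-a1. Tfrc was called higher in KI Tregs than in WT Tregs (0.35, adjusted p = 0.048) and in KI Tregs than in KI Tconv (0.46, adjusted p = 0.00039), and not in WT Tregs against WT Tconv (0.12, adjusted p = 0.33). The call between genotypes was lost without any of 12 arrays and with the title numbers as a block of 3 sets, where the difference was 0.19 (adjusted p = 0.88). KI and WT arrays share only title numbers 24 to 27, so that block leaves little precision between genotypes. The list mean of erythroid markers ranged over 4.88 to 6.36 in KI Tregs, 4.99 to 6.56 in WT Tregs, 4.72 to 5.74 in KI Tconv and 4.98 to 6.12 in WT Tconv, and its part in the Gata1 differences was not tested.

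Of 10 listed genes of the GATA family and its cofactors 9 were on the array and 3 were tested, and 0 were called by limma in any of the 5 comparisons. At an unadjusted p under 0.05 there were 0 in 4 of the comparisons and 1, Zfpm1, in the interaction. Of the 8139 genes tested, 1 probe set each, 20.4% were called higher and 18.9% lower in Tregs in KI, 15.9% and 16.6% in WT, and 1.34% and 0.59% between KI and WT Tregs, so 0 of 3 is no result about these genes. The cofactor genes Zfpm1 (FOG-1) and Ldb1 differed by -0.16 and -0.05 between KI Tregs and KI Tconv and by 0.27 and 0.09 between WT Tregs and WT Tconv, with adjusted p of 0.36, 0.83, 0.14 and 0.69. Lmo2, a bridging protein of GATA complexes, differed by 0.36 in KI and 0.33 in WT (adjusted p = 0.54 and 0.61). Gata2, Tal1, Gfi1b and Nfe2, which act with Gata1 in red cell and megakaryocyte precursors, averaged 2.78 to 3.49 in every group.

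Gata3 (1448886_PM_at) had values of 9.77, 9.76, 9.56 and 9.64 in KI Tregs, 9.61, 9.68, 9.47 and 9.46 in WT Tregs, 8.83, 8.60, 8.72 and 8.62 in KI Tconv, and 8.53, 8.74, 8.54 and 8.63 in WT Tconv. The Treg arrays lay clear of the Tconv arrays and the genotypes overlapped within each cell type. The Treg minus Tconv difference was 0.99 in KI (1.99-fold, SE 0.0762, adjusted p = 1.60e-08) and 0.95 in WT (1.93-fold, adjusted p = 4.03e-08). Its arrays lay close together, with SDs of 0.0989 to 0.104 in the 4 groups.

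Rora showed the largest difference of the 6 genes between cell types. Its probe set 1420583_PM_a_at had 8.69, 8.04, 8.51 and 8.37 in KI Tregs, 8.61, 8.45, 8.73 and 8.45 in WT Tregs, 6.56, 6.27, 6.03 and 6.14 in KI Tconv, and 6.63, 7.24, 6.57 and 6.72 in WT Tconv. The Treg minus Tconv difference was 2.15 in KI (4.45-fold, SE 0.158, adjusted p = 9.14e-09) and 1.77 in WT (3.41-fold, adjusted p = 1.47e-07). The arrays of the 2 Treg groups overlapped, and those of WT Tconv all lay above those of KI Tconv. Probe sets 1436325_PM_at and 1436326_PM_at gave 1.80 and 1.98 in KI and 1.41 and 1.57 in WT, with adjusted p of 5.38e-08, 4.06e-08, 1.46e-06 and 1.00e-06. The other 2 probe sets of Rora, 1443443_PM_at and 1458145_PM_at, ranged over 2.49 to 3.40 on the 16 arrays, at background.

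Eomes was higher in Tregs with a wide spread. Its probe set 1435172_PM_at had 6.69, 6.83, 6.38 and 6.19 in KI Tregs, 6.22, 7.21, 6.59 and 6.41 in WT Tregs, 6.01, 5.71, 5.30 and 5.78 in KI Tconv, and 5.77, 6.03, 5.72 and 5.21 in WT Tconv. Treg and Tconv arrays did not overlap within either genotype, and the genotypes overlapped. The difference was 0.83 between KI Tregs and KI Tconv (SE 0.219, adjusted p = 0.00722) and 0.92 between WT Tregs and WT Tconv (adjusted p = 0.00392). Probe set 1426001_PM_at gave 0.72 in KI (SE 0.222, adjusted p = 0.0183, with overlapping arrays) and 0.74 in WT (adjusted p = 0.0181). Within title numbers 24 to 27, with 1 array a group, the KI differences of 1435172_PM_at and 1426001_PM_at were 0.41 and 0.36, against 0.96 and 0.84 within numbers 13 to 23.

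The call of 1426001_PM_at rested on single arrays. In KI it was lost without KI Treg replicate 1 (0.67, adjusted p = 0.0514), KI Treg replicate 2 (0.62, adjusted p = 0.0549), KI Tconv replicate 2 (0.55, adjusted p = 0.0705) or KI Tconv replicate 3 (0.59, adjusted p = 0.0652), and in WT without WT Treg replicate 2 (0.62, adjusted p = 0.0666) or WT Tconv replicate 4 (0.65, adjusted p = 0.0551). Cd8a, a gene of cytotoxic T cells, was higher in Tregs by 1.82 in KI (adjusted p = 4.6e-07) and by 2.35 in WT (adjusted p = 2.5e-08). It reached at most 4.61 on KI Tconv arrays and 4.29 on WT Tconv arrays, so it passed the filter through Tregs alone. Its partner Cd8b1 differed by -0.26 in KI and 0.08 in WT (adjusted p = 0.11 and 0.68). The list mean of these 2 genes ranged over 5.85 to 6.26 in KI Tregs, 6.11 to 6.45 in WT Tregs, 5.18 to 5.61 in KI Tconv and 4.8004 to 5.19 in WT Tconv, and its part in the Eomes difference was not tested. Of 6 NK cell markers 1 was tested, Nkg7, which was higher in Tregs of both genotypes, and the NK receptor gene Ncr1 averaged 2.98 to 3.04.

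Tbx21 (1449361_PM_at) stayed near background in all 4 groups. It had 4.59, 4.83, 4.11 and 4.71 in KI Tregs, 3.82, 4.42, 4.63 and 4.00 in WT Tregs, 4.96, 4.03, 3.80 and 5.09 in KI Tconv, and 4.41, 4.57, 4.43 and 4.53 in WT Tconv. A single array was above 5 and the groups overlapped throughout. With no filter on low values the difference was 0.09 between KI Tregs and KI Tconv (95% interval -0.42 to 0.61, adjusted p = 0.857) and -0.27 between WT Tregs and WT Tconv (-0.78 to 0.25, adjusted p = 0.593), and the signal was too low to tell whether the groups differ.

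Bcl6 was higher in Tregs of both genotypes. Its probe set 1421818_PM_at had 7.62, 7.84, 8.07 and 7.86 in KI Tregs, 8.10, 8.07, 8.13 and 8.17 in WT Tregs, 7.24, 7.45, 7.55 and 7.16 in KI Tconv, and 7.21, 7.40, 7.28 and 7.41 in WT Tconv. The 4 WT Treg arrays lay close together and the highest KI Treg array reached their lower edge. The Treg minus Tconv difference was 0.50 in KI (1.41-fold, SE 0.101, adjusted p = 0.000867) and 0.80 in WT (1.74-fold, adjusted p = 9.56e-06). Probe set 1450381_PM_a_at gave 0.67 in KI (adjusted p = 0.00780) and 1.30 in WT (adjusted p = 2.72e-05). With array weights the KI difference of 1421818_PM_at was 0.27.

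**Figure D2:**
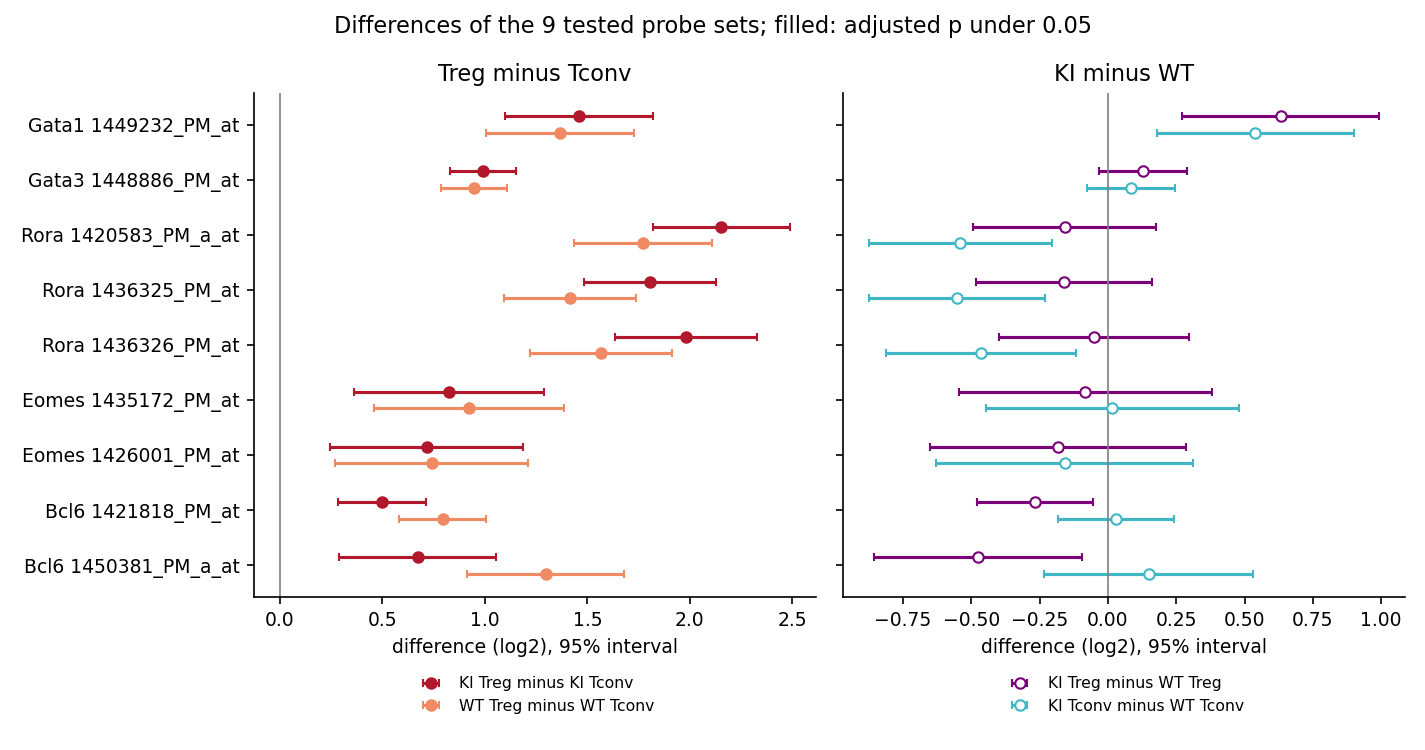
Log2 differences with 95% intervals for the 9 tested probe sets, Treg minus Tconv on the left and KI minus WT on the right; filled points have an adjusted p under 0.05. All Treg minus Tconv points are filled and above 0, and no KI minus WT point is filled.

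Between genotypes none of the 9 tested probe sets passed the test. In KI Tregs against WT Tregs 0 of 9 were called, where 1.51% of all probe sets were, and Gata1 and both probe sets of Bcl6 had an unadjusted p under 0.05 (3 of 9, against 15.8% of all). In KI Tconv against WT Tconv 0 of 9 were called, where 0.0967% were, and Gata1 and the 3 probe sets of Rora had an unadjusted p under 0.05 (4 of 9, against 5.48%). The arrays of KI and WT did not overlap for 0 of 9 in Tregs, against 7.69% of all, and for 2 of 9 in Tconv, against 3.16%.

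Gata1 averaged 6.89 ± 0.43 in KI Tregs and 6.26 ± 0.09 in WT Tregs, and 5.43 ± 0.19 in KI Tconv and 4.89 ± 0.19 in WT Tconv (SD, n = 4 each). The difference was 0.63 in Tregs (1.55-fold, 95% interval 0.27 to 0.99, adjusted p = 0.0758) and 0.54 in Tconv (1.45-fold, 0.18 to 0.90, adjusted p = 0.685). The Treg groups overlapped through the KI Treg array with title number 26, and the Tconv groups did not overlap. Within title numbers 24 to 27, with 1 array a group, Gata1 differed by 0.16 in Tregs and by 0.59 in Tconv. Without these 4 arrays it differed by 0.79 in Tregs (adjusted p = 0.00220) and by 0.52 in Tconv (adjusted p = 0.0363), and without the KI Treg array of number 26 alone by 0.84 in Tregs (adjusted p = 0.00255). With the title numbers as a block of 3 sets the Treg difference was 0.42 (adjusted p = 0.665), and with 2 sets it was 0.63 (adjusted p = 0.00781). Outside numbers 24 to 27 the sets hold 1 genotype each, so set and genotype cannot be told apart there. The block of 3 sets thus draws the genotype difference, averaged over Tregs and Tconv, from numbers 24 to 27 only, which leaves little precision.

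Rora did not pass the test between genotypes, while its 3 tested probe sets had lower means in KI Tconv than in WT Tconv. Probe set 1420583_PM_a_at averaged 6.25 ± 0.23 in KI Tconv and 6.79 ± 0.31 in WT Tconv (SD, n = 4 each), a difference of -0.54 (95% interval -0.88 to -0.21, adjusted p = 0.590), and probe sets 1436325_PM_at and 1436326_PM_at differed by -0.55 and -0.46 (adjusted p = 0.509 and 0.832). Within title numbers 24 to 27 the 3 probe sets differed by -0.58, -0.33 and -0.39, the same direction. Probe set 1436325_PM_at passed the test without KI Tconv replicate 4 (-0.71, adjusted p = 0.0216) and without title numbers 24 to 27 (-0.63, adjusted p = 0.0353). In KI Tconv it averaged 5.20 and stood above log2 5 on 2 of 4 arrays, near background. In Tregs the 3 probe sets differed by -0.16, -0.16 and -0.05 (adjusted p = 0.643, 0.622 and 0.900). Of 5 Treg markers 2 were called lower in KI Tconv than in WT Tconv, Foxp3 (-0.93, adjusted p = 0.0206) and Ikzf2 (-0.83, adjusted p = 1.8e-05). Among all 8139 tested genes 0.123% were called lower in this comparison. Il2ra, Ctla4 and Tnfrsf18 differed by -0.10, -0.19 and -0.03 (adjusted p = 0.946, 0.910 and 0.978). The list mean of the 5 ranged over 6.21 to 6.36 in KI Tconv and 6.56 to 6.78 in WT Tconv. Foxp3 and Il2ra were above log2 5 on no Tconv array. The Foxp3 call was lost without any of 5 of the 8 Tconv arrays and with only the groups compared (-0.93, adjusted p = 0.24). It was lost too with the title numbers as a block of 3 sets (-1.09, adjusted p = 0.57), which leaves little precision between genotypes. The part of any Tregs among Tconv in the Rora difference was not tested.

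Bcl6 did not pass the test either, while both its probe sets had lower means in KI Tregs than in WT Tregs. Probe set 1421818_PM_at averaged 7.85 ± 0.18 in KI Tregs and 8.12 ± 0.04 in WT Tregs, a difference of -0.27 (95% interval -0.48 to -0.06, adjusted p = 0.204), and 1450381_PM_a_at averaged 5.62 ± 0.14 in KI Tregs and 6.09 ± 0.24 in WT Tregs, a difference of -0.48 (-0.86 to -0.09, adjusted p = 0.210; SD, n = 4 each). Within title numbers 24 to 27 they differed by -0.30 and -0.43. In Tconv the differences were 0.03 and 0.15 (adjusted p = 0.986 and 0.940), against -0.24 and -0.55 within title numbers 24 to 27.

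Gata3 and Eomes did not pass the test between genotypes either. Gata3 differed by 0.13 in Tregs (95% interval -0.03 to 0.29, adjusted p = 0.416) and by 0.08 in Tconv (-0.08 to 0.24, adjusted p = 0.922). Probe set 1435172_PM_at of Eomes differed by -0.08 in Tregs (-0.55 to 0.38) and by 0.02 in Tconv (-0.45 to 0.48). Tbx21, with no filter on low values, differed by 0.34 in Tregs (-0.17 to 0.86, adjusted p = 0.661) and by -0.02 in Tconv (-0.53 to 0.50).

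The genotype difference was then set against itself in Tregs and Tconv. For this interaction 0 of 9 were called, where 0.371% of all probe sets were (0.311% higher and 0.0591% lower), and 1 of 9 had an unadjusted p under 0.05, where 7.01% did. That probe set was 1450381_PM_a_at of Bcl6, whose KI minus WT difference was lower by 0.63 in Tregs than in Tconv (interaction -0.63, SE 0.256, adjusted p = 0.624). For Gata1 the interaction was 0.09 (95% interval -0.42 to 0.60, adjusted p = 0.982).

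**Figure D3:**
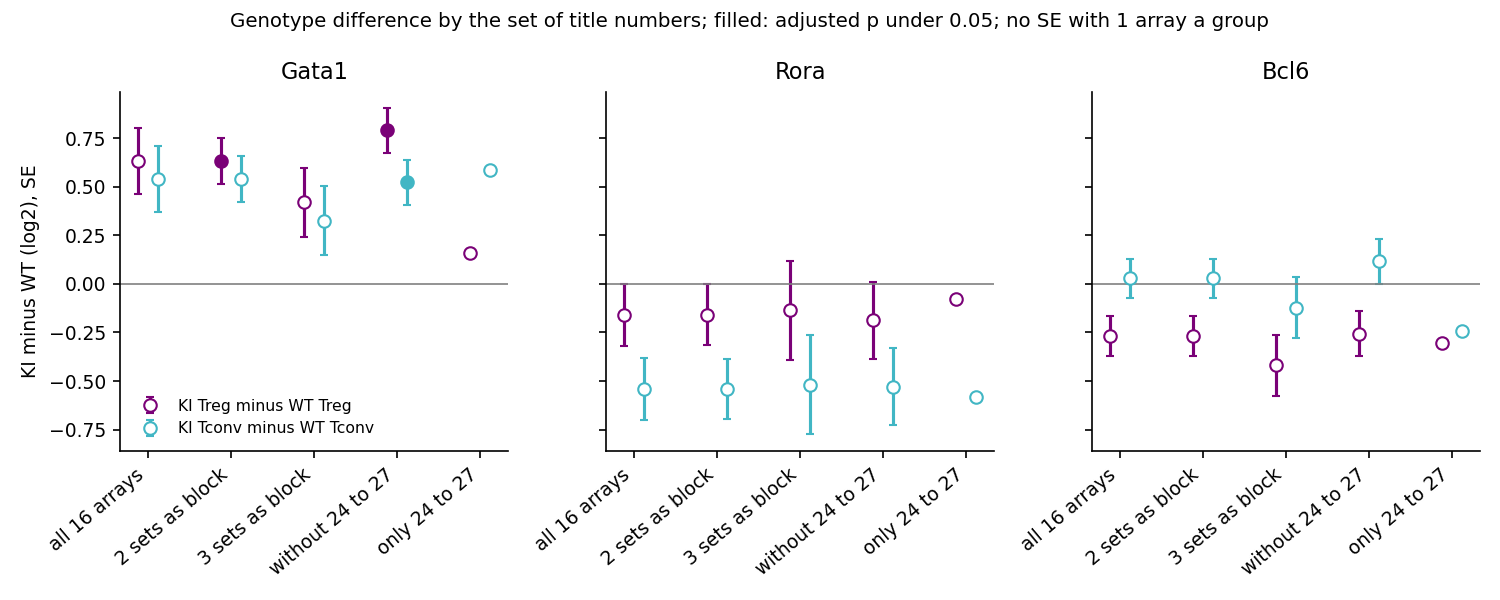
KI minus WT difference in log2 with SE for the probe sets 1449232_PM_at (Gata1), 1420583_PM_a_at (Rora) and 1421818_PM_at (Bcl6), in Tregs and in Tconv, with all 16 arrays, with the sets of title numbers as a block, without numbers 24 to 27 and within them; filled points have an adjusted p under 0.05. Gata1 in Tregs runs from 0.16 within numbers 24 to 27 to 0.79 without them, and Rora in Tconv stays between -0.52 and -0.58.

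Gata1 was set beside the genes that separate it from Foxp3 on the X chromosome. The annotation of GRCm38.p6 places 27 genes between them, 21 of them protein-coding, of which 20 had a probe set and 13 were tested. Ccdc22, the gene next to Foxp3, with a role in endosome sorting, was lower in KI Tregs (-1.13, SE 0.114, adjusted p = 3.81e-05) and in KI Tconv (-0.89, adjusted p = 0.00149), and it was the only call among the 13 in either comparison, where 1.51% of all probe sets were called in Tregs and 0.0967% in Tconv. With the title numbers as a block of 3 sets, which leaves little precision between genotypes, the Tconv call was lost. The difference was then -0.97 (adjusted p = 0.19). Gpkow differed by -0.24 and -0.30 (adjusted p = 0.120 and 0.315), the sugar transporter gene Slc35a2 by 0.35 and 0.14 (adjusted p = 0.235 and 0.928), and the deacetylase gene Hdac6, 3 places before Gata1 in that order, by 0.30 and 0.29 (adjusted p = 0.342 and 0.887) in Tregs and Tconv. The median of the 13 was 0.10 in Tregs and 0.02 in Tconv, and each stood below Gata1 in both. Without title numbers 24 to 27, Hdac6 was called higher in KI Tregs (0.51, adjusted p = 0.0408) and Gpkow lower in KI Tconv (-0.39, adjusted p = 0.0245).

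**Figure D4:**
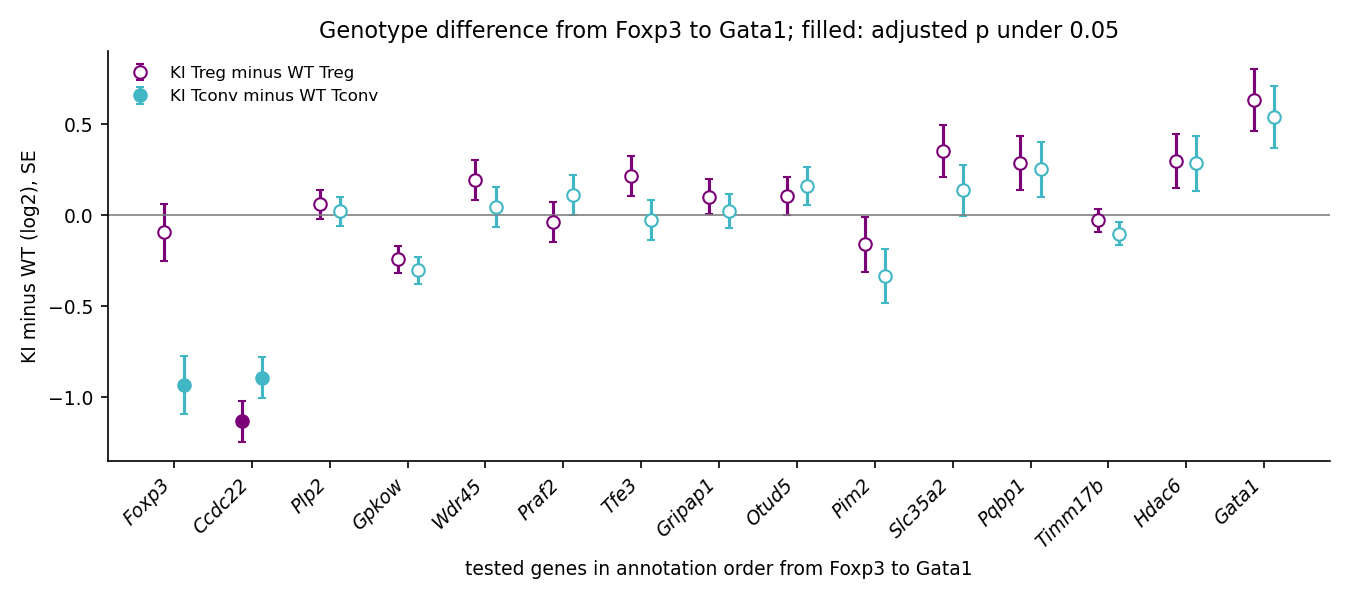
KI minus WT difference in log2 with SE for Foxp3, the 13 tested genes that lie between it and Gata1, and Gata1, in annotation order with even spacing; filled points have an adjusted p under 0.05. Ccdc22 lies at -1.13 in Tregs and -0.89 in Tconv, and Gata1 is the highest point in both cell types.

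The genes whose profile over the 16 arrays was nearest to each factor were found by the root mean square (RMS) difference of log2 values, each centred on its own mean. For Gata1 they were Bcl2l1 (RMS 0.229), which codes for the survival protein BCL-XL, the semaphorin receptor gene Plxnd1 (0.232) and the nuclear receptor gene Nr4a1 (0.239), which T cell receptor signals induce. For Gata3 they were Abhd17c (0.0986), Tspan3 (0.105) and the IL-10 receptor gene Il10rb (0.106). For Rora they were 6330509M05Rik (0.221), Ift80 (0.238) and the growth factor receptor gene Igf1r (0.248). Eomes, Bcl6 and Tbx21, whose group means spanned 0.92, 0.80 and 0.34, were under the span of 1 set for this search.

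Genes linked to the programs of these factors were counted next, with 1 probe set per gene. The lists were chosen with earlier results of these data known, so the counts describe these genes and are no independent test of a program. Among all 8139 tested genes 20.4% were higher and 18.9% lower in Tregs in KI (median -0.02), and 15.9% and 16.6% in WT (median -0.03). Of 10 tested genes of the Th1 program of Tbx21, 8 were higher and 1 lower in KI (median 0.87), and 6 and 1 in WT (median 0.65). In WT these included Bhlhe40 (1.42), which limits IL-10, the IL-12 receptor gene Il12rb1 (1.41), the chemokine receptor gene Cxcr3 (1.01) and the IL-18 receptor gene Il18r1 (0.94). Tbx21 itself was near background. Filtering favours differences in these lists too: Il12rb1 reached at most 4.58 on KI Tconv arrays and 4.49 on WT Tconv arrays, so it passed through Tregs alone. Leaving out 1 array moved the KI count of 8 to between 5 and 9, and it was 5 without KI Tconv replicate 2 or KI Tconv replicate 3.

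Of 7 tested genes of the Th2 program of Gata3, 4 were higher and 0 lower in KI (median 0.47), and 5 and 1 in WT (median 0.48). In WT, Ecm1 (2.37), the transcription factor genes Maf (2.11) and Gfi1 (1.67) were higher and the IL-25 receptor gene Il17rb (-1.23) was lower. The Th2 cytokine genes Il4, Il5 and Il13 averaged at most 3.74 in every group and were not tested. Of 6 tested genes of the Th17 program and ROR family, 4 were higher and 0 lower in each genotype (median 0.82 in KI and 0.66 in WT). In WT these were the chemokine receptor gene Ccr6 (2.63), the receptor gene Ahr (2.45), Batf (0.94) and Il21r (0.38), and the Il21r call was lost without any of 5 WT arrays. In KI, Stat3 (0.31, adjusted p = 0.033) was called in place of Il21r. The Stat3 call was lost with no filter on low values (adjusted p = 0.053) and without single KI arrays, such as KI Tconv replicate 1 (0.23, adjusted p = 0.11). Il17a averaged at most 3.33.

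The 8 tested cytotoxic and memory genes linked to Eomes went both ways, with 3 higher and 3 lower in KI (median -0.02), and 3 and 4 in WT (median -0.44). In WT the inhibitory receptor gene Klrg1 (3.76), the granzyme gene Gzmb (3.23) and the cytokine receptor gene Il2rb (2.88) were higher and the perforin gene Prf1 (-1.81) was lower. Gzmb reached at most 3.82 on KI Tconv arrays and 4.45 on WT Tconv arrays, so it too passed the filter through Tregs alone. Of 14 tested genes of the Tfh list of Bcl6, 5 were higher and 5 lower in each genotype (median 0.04 in KI and -0.15 in WT). The list also holds opponents of Bcl6 such as Prdm1, so these counts give no direction for the program. In WT the inhibitory receptor gene Pdcd1 (2.16) and Prdm1 (1.64), the gene of the factor that opposes Bcl6, were higher, and Id2 (-1.51) and the cytokine gene Il21 (-1.33) were lower. Of 5 tested corepressors and partners of Bcl6, 1 was higher and 1 lower in KI, and 2 and 1 in WT, where Nfil3 was at 1.84, Mta3 at 0.35 and the innate-like T cell factor Zbtb16 at -1.95.

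**Figure D5:**
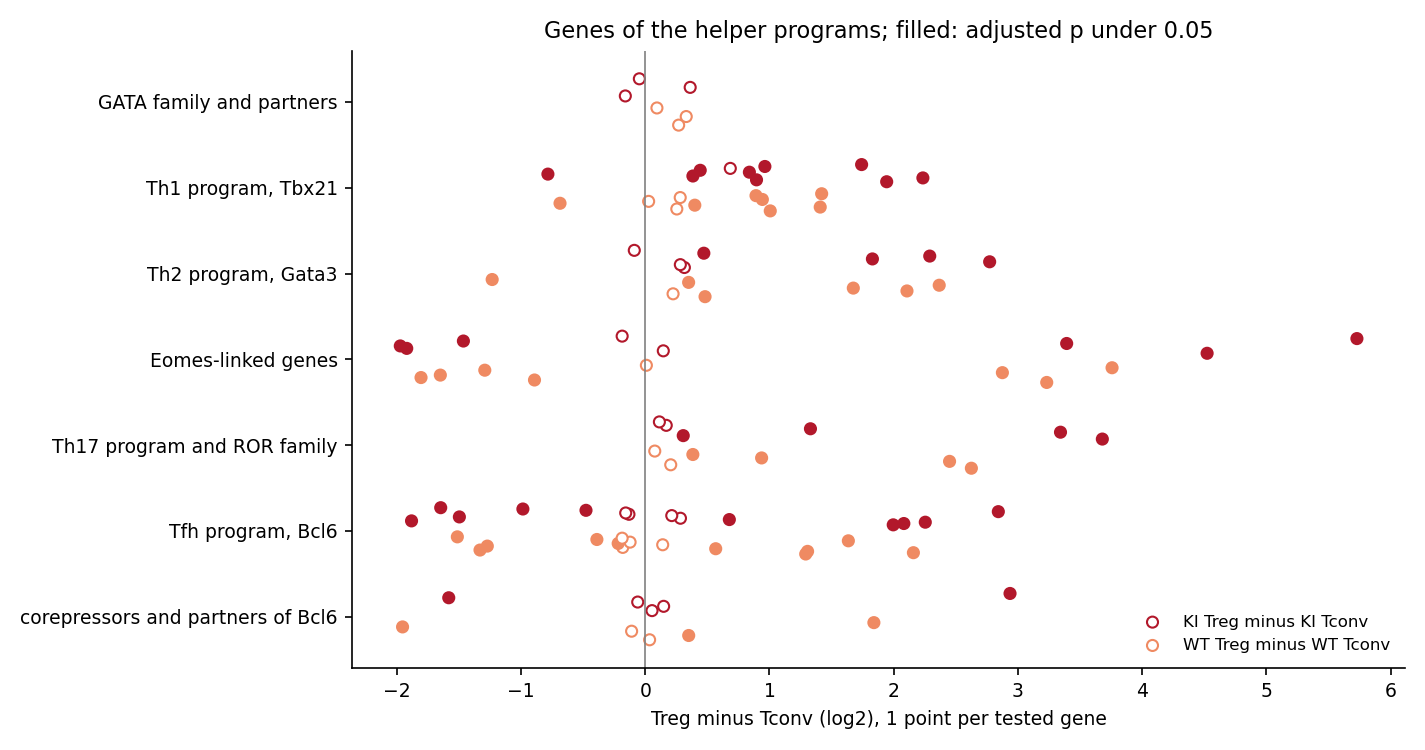
Treg minus Tconv difference in log2 for each tested gene of 7 lists, in KI and in WT; filled points have an adjusted p under 0.05. Genes of the Th1, Th2 and Th17 lists lie mostly above 0, and those of the Eomes and Bcl6 lists lie on both sides.

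Between KI Tregs and WT Tregs, where 1.34% of the 8139 genes were higher and 0.59% lower, 8 genes of these lists were called. The GATA, Th1, Th2, Eomes, Th17, Tfh and Bcl6 partner lists held 3, 10, 7, 8, 6, 14 and 5 tested genes. Higher in KI Tregs were Nfil3 (1.09), Prdm1 (0.89), Il17rb (0.85), Il12rb1 (0.81), Gzmb (0.76), the costimulatory receptor gene Icos (0.57) and the Treg effector factor gene Batf (0.52), and lower was Il18r1 (-0.83), with adjusted p of 0.00024, 0.0014, 0.045, 0.034, 0.019, 0.0014, 0.019 and 0.0055. With the title numbers as a block of 3 sets, 7 of these 8 lost the call and Nfil3 kept it, and these 7 kept their direction. In that fit Il17rb was at 0.49 and Batf at 0.23. KI and WT share only title numbers 24 to 27, so that fit has little precision between genotypes and a lost call there says little. Il17rb averaged 4.75 in KI Tregs and 3.90 in WT Tregs, near background, and lost its call without any of 13 arrays. Batf, Gzmb and Il12rb1 each lost theirs without any of 4. Between KI Tconv and WT Tconv, where 0.123% of the genes were lower, Klrg1 was the only call (-1.59, adjusted p = 0.0088). It averaged 3.35 in KI Tconv and 4.94 in WT Tconv, near background. The call was lost without KI Tconv replicate 2 (-1.52, adjusted p = 0.056) and with only the groups compared (adjusted p = 0.074). With the block of 3 sets it was lost too, at a difference of -0.96 (adjusted p = 0.9999).

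In the interaction, where 0.467% of the 8139 genes were called higher and 0.0491% lower, 6 of the same tested list genes were called, each higher. The KI minus WT difference was larger in Tregs than in Tconv for Klrg1 (by 1.97), Gzmb (1.29), Prdm1 (1.21), Nfil3 (1.10), Ccr6 (1.05) and Icos (0.95), with adjusted p of 0.0105, 0.0104, 0.00545, 0.00786, 0.0318 and 0.00102. The Ccr6 call was lost without any of 11 arrays, and the Gzmb call without title numbers 24 to 27 (adjusted p = 0.0532). Klrg1 and Gzmb averaged under log2 5 in Tconv of both genotypes (Gzmb 3.67 in KI and 4.21 in WT), near background.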

How the data were processed

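RNA of sorted T cells was labelled by an Affymetrix 3' IVT protocol and hybridised to 16 arrays, per the labels' protocols. The deposited values are log2 intensities that the authors made with RMA in Partek 6.5, per the submitters' processing notes, which do not give its options. RMA scales arrays to a common distribution, so differences are relative to the bulk of genes. No other alignment or filter is given in the sources used here.

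Groups came from the labels. Of 45141 probe sets, 104 controls were left out. Probe sets were named through the platform annotation, 28689 updated by Entrez gene and 152 by symbol, with 57 kept as on the array, and 28898 had 1 gene, 551 several and 15588 none. Low values were filtered at log2 5 on at least 4 arrays. All 16 arrays and the 18621 remaining probe sets entered a linear model of the 4 group means in limma 3.58.1 (R 4.3.3), with a trend of the prior variance on expression and Benjamini-Hochberg adjustment over all probe sets, so every adjusted p printed here is limma's. The script was tested on simulated data. For each gene with several probe sets, the one with the highest mean stands for it in lists and plots.

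All probe sets of the 6 genes are named. From each list up to 4 called genes with the largest difference between WT Tregs and WT Tconv are named, and called genes between genotypes, and between Foxp3 and Gata1 the 4 genes whose p was lowest in KI against WT Tregs. The genes, lists and tests were chosen with earlier results of these data known. Alternatives were filters, 1 probe set per gene, variance models, array weights, quantile normalization, sets of title numbers as blocks, smaller sets of arrays, and each array left out. Counts for the lists under these settings were added after seeing the data. The number of arrays limits the precision.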

Additional observations from a re-analysis of the deposited data

Results flagged for a closer look

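Of 48 groups of 4 arrays examined over the 12 probe sets, 1 held an array whose gap to the nearest of the others, as a share of the group's range, was above Dixon's 95% critical value for 4 samples, where chance gives about 1 in 20 groups. For probe set 1458145_PM_at of Rora, the WT Treg array with title number 24 stood at 3.19 and the nearest of the other 3 at 2.98, a gap of 0.832 of the group's range. The probe set is at background in every group and was not tested, and no result rests on it.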

How the results depend on the processing

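The 9 calls between KI Tregs and KI Tconv and between WT Tregs and WT Tconv kept their direction under each alternative in which the probe set was tested, and those of Gata1, Gata3, Rora, Bcl6 and of 1435172_PM_at of Eomes kept their call there. Probe set 1450381_PM_a_at of Bcl6 did not pass the filter at log2 6 and was not tested under it. With 1 probe set per gene, 5 of 5 tested were called in each. Probe set 1426001_PM_at of Eomes lost its call in KI with only the groups compared (0.72, adjusted p = 0.0532) and in WT without title numbers 24 to 27 (0.72, adjusted p = 0.0525), besides the single arrays named above. Between genotypes the count of 0 called depended on the setting. In Tregs it was 3 with array weights, 1 with a block of 2 sets, 1 without title numbers 24 to 27, and 0 to 1 with each array left out. In Tconv it was 4 with array weights, 2 without title numbers 24 to 27, and 0 to 1 with each array left out. For the interaction it was 2 with array weights.

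Differences near 0 changed sign, none of them called. Between KI and WT Tregs, 1426001_PM_at was 0.164 with a block of 3 sets. There 1435172_PM_at was 0.0321 with array weights, 0.125 with 3 sets and -0.212 to 0.120 with each array left out, and 1436326_PM_at of Rora was 0.100, 0.0154 and -0.157 to 0.110. Between KI and WT Tconv, with 3 sets, 1421818_PM_at and 1450381_PM_a_at of Bcl6 were -0.123 and -0.178 and 1426001_PM_at was 0.189. With each array left out 1421818_PM_at ranged over -0.0380 to 0.0896, 1426001_PM_at over -0.356 to 0.0113 and 1435172_PM_at over -0.142 to 0.150. There 1435172_PM_at was -0.163 with array weights, -0.00469 with quantile normalization and -0.168 without title numbers 24 to 27. For the interaction, with array weights and without title numbers 24 to 27, 1426001_PM_at was 0.400 and 0.119 and 1435172_PM_at 0.196 and 0.132, and Gata3 was -0.00251 without those numbers. With each array left out it ranged over -0.194 to 0.173 for 1426001_PM_at, -0.233 to 0.104 for 1435172_PM_at and -0.0130 to 0.297 for Gata1.

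Over all probe sets, 282 were called between KI and WT Tregs, against 3385 with array weights, 567 and 43 with blocks of 2 and 3 sets, 1101 without title numbers 24 to 27 and 174 with only the groups compared. Between KI and WT Tconv 18 were called, against 572 with array weights, 4 with 3 sets, 316 without those numbers, 11 with only the groups compared and 11 with 1 probe set per gene. For the interaction 69 were called, against 767 with array weights, 112 and 122 with 2 and 3 sets and 105 without those numbers. With 1 probe set per gene the 6806 between KI Tregs and KI Tconv became 3343, and the 5373 between WT Tregs and WT Tconv 2818, with fewer features tested. The causes were not tested. No paired analysis was possible because the labels give no replicate numbers that the groups share. Signals near background limit Tbx21, Gata1 in WT Tconv, 1450381_PM_a_at of Bcl6 in Tconv, Klrg1 and Gzmb in Tconv and Il17rb in Tregs.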
